A study of Saccharomyces cerevisiae with 12 samples.

Results

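The transcriptome of a P-body assembly mutant of the budding yeast Saccharomyces cerevisiae was compared with that of a wild-type strain. Both grew in sodium perchlorate, an oxidizing salt found in Martian soil. Of the 5966 transcripts used from the deposited tables, the comparison covers the 5701 whose mean over the 4 perchlorate libraries was at least 10 normalized reads. The wild type was BY4741, a haploid laboratory strain, and the mutant (edc3∆lsm4∆C) carried a deletion of EDC3 and a version of LSM4 without the C-terminal Q/N-rich domain of its protein. Both were grown continuously at 30 °C in medium lacking uracil with 100 mM NaClO4, and harvested at an OD600 of 0.4 to 0.5. Each strain had 2 libraries in perchlorate and 2 from untreated cells grown in the same medium, made from total RNA with a directional kit. How many mutant clones were used, and whether replicates came from separate cultures, is not stated in the labels. The p-values therefore cover only library-to-library spread, which may be technical.

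P-bodies are cytoplasmic condensates that gather mRNAs leaving translation together with the proteins that remove their cap and degrade them from the 5′ end. Edc3 is a scaffold that binds the decapping enzyme Dcp2 and the helicase Dhh1, and Lsm4 is a subunit of the Lsm1-7 ring that binds the 3′ ends of deadenylated mRNAs. The Q/N-rich tail of Lsm4 and the self-association of Edc3 are known to help P-bodies assemble, and cells lacking both form few visible P-bodies while bulk mRNA decay goes on. In bulk RNA, fewer cells that express a transcript and less of it per cell cannot be told apart.

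The 4 perchlorate libraries held 14465349 to 17069216 reads on transcripts, and the 4 untreated ones 14110933 to 15483920. Replicates of the groups had a Pearson r of 0.986 to 0.995 across transcripts, which are not independent replicates, and their counts differed by 16.9 to 34.8 times the degrees of freedom of a chi-square test, so each was counted as a library of its own. Both perchlorate libraries with replicate number 2 held small numbers of reads from transcripts typical of the other strain. LEU2 and MET17 had 0 reads in wild type 1 but 23 and 51 in wild type 2, which is 0.391% and 0.179% of their level in the mutant after scaling to library totals. Of 12 transcripts with 0 reads in mutant 1 and at least 50 in each wild type, 8 had reads in mutant 2, 19 reads in all and 0.376% of the wild-type level. In the untreated libraries LEU2 and MET17 had 0 reads in both wild types. The source of these traces was not tested. They matter for transcripts that 1 strain lacks or nearly lacks. Most of these are therefore given below as reads in each library with no fold. Fitted values are given for some, such as AGA2, MFA1 and COS4, and are less certain there.

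The deleted gene was examined first. EDC3 (YEL015W) had 1073 and 745 reads in the wild-type libraries and 1 and 1 in the mutant ones. The strains did not overlap. LSM4 (YER112W) was measured at 566 and 589 normalized reads in the wild type and 647 and 722 in the mutant, a log2 difference (mutant minus wild type, as everywhere below) of 0.24 ± 0.11 (SE, adjusted p = 0.109). That difference did not pass the test, limma on log2(normalized reads + 1) with Benjamini-Hochberg adjustment over all 5701 transcripts and a threshold of 0.05. With RPM (reads scaled to the library total) in place of the deposited size factors it passed, at 0.39 with an adjusted p of 0.0278 from limma. Loss of the 3′ part of LSM4 cannot be read from reads summed along the gene. The genes beside EDC3 and LSM4 also did not pass, NPP2 at -0.31 ± 0.11, VAC8 at 0.03 ± 0.09, SWI4 at 0.19 ± 0.19 and TMN3 at 0.11 ± 0.09.

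Both mRNAs known to be decayed through Edc3 itself were higher in the mutant. RPS28B, whose mRNA carries a 3′ element bound by its own protein product that recruits Edc3, had 5094 and 7125 normalized reads in the wild type and 12294 and 15332 in the mutant, a difference of 1.19 ± 0.17 (SE, adjusted p = 0.000994). YRA1, an mRNA export factor gene whose unspliced transcript is an Edc3 target, had 4706 and 5209.6 against 11567 and 12918 normalized reads (wild type against mutant, the order used for such pairs of libraries throughout), a difference of 1.30 ± 0.11 (SE, adjusted p = 5.48e-05). For both genes each mutant library lay above each wild-type library. Counts per transcript do not separate spliced from unspliced YRA1 RNA. Both stayed called with any 1 library left out, and both were also higher in untreated cells, by 0.91 ± 0.19 and 1.24 ± 0.09.

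With the deposited size factors the rest of the decay machinery gave few calls. Of the 25 tested members of the decapping and P-body list, 1 was higher and 4 lower, against 16.3% of all transcripts higher and 15.6% lower (31.9% called in either direction), and the median difference was 0.04. The higher member was PAT1, a scaffold of decapping, at 0.30 ± 0.10 (SE, adjusted p = 0.0435). The lower ones besides EDC3 were the helicase gene DHH1 at -0.57 ± 0.14, the Lsm ring subunit gene LSM7 at -0.42 ± 0.11 and SBP1, which encodes an RNA-binding repressor of translation, at -0.30 ± 0.09. DHH1 had 2059 and 1769 normalized reads in the wild type and 1465 and 1129 in the mutant, without overlap. None of these 4 calls survived every omission of a library: PAT1 and SBP1 were lost without any 1 of the 4, DHH1 without wild type 1 or mutant 2, and LSM7 without wild type 2 or mutant 1. With RPM the balance in this list turned, to 6 higher and 1 lower. That scaling gave 1421 higher and 447 lower among all 5701 transcripts, so this turn is not particular to the list. Genes of deadenylation and of the exosome, which degrades RNA from the 3′ end, gave 0 calls among 21 tested, with a median of 0.10. The smallest p was that of the deadenylase gene CCR4, at 0.32 ± 0.11 (SE, adjusted p = 0.0586). With RPM 5 of these 21 were higher, with TMM scaling or edgeR 2, without mutant 2 it was 1, and with DESeq2 0.

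Stress granule proteins form a related condensate around stalled initiation complexes. In their list 3 of 27 tested members were higher (11.1%) and 5 lower (18.5%), with a median of 0.01. The shares of all transcripts were 16.3% and 15.6%. RIE1, which encodes an RNA-binding protein, had the largest difference, from 3614 and 3448 to 2381 and 2079 normalized reads, at -0.67 ± 0.10 (SE, adjusted p = 0.00141). The poly(A)-binding protein gene PAB1 was lower at -0.40 ± 0.12, and TIF1 and TIF2, near-identical genes for the helicase eIF4A whose reads may be split between them, were lower at -0.47 ± 0.12 and -0.43 ± 0.11. SLF1, an RNA-binding protein gene, was higher at 0.60 ± 0.13, and NAB3, of nuclear transcription termination, at 0.54 ± 0.10. The PAB1 call was lost without any 1 library, those of TIF1 and TIF2 without wild type 2 or mutant 1, and the number of lower members was 2 or 3 with each of the 4 omissions. With RPM 4 were higher and 3 lower.

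The strains also differed in markers that are not known to be part of P-bodies. BY4741 is known as an a-mating-type strain that lacks LEU2 and MET17, biosynthetic genes of leucine and methionine, and the labels give BY4741 as the source of all libraries. LEU2 had 0 and 23 reads in the wild-type and 6398 and 5751 in the mutant libraries in perchlorate, and MET17 had 0 and 51 against 27802 and 30889. In untreated cells LEU2 had 0 and 0 reads in the wild type and 6319 and 5366 in the mutant. Transcripts beside these genes were higher in the mutant too, NFS1 beside LEU2 at 0.74 ± 0.09 and ACO1 beside MET17 at 0.91 ± 0.11, and YCL019W, uncertain because it has near-identical copies and an overlapping neighbour, had 1 and 1 reads in the wild type and 274 and 224 in the mutant. URA3, which BY4741 is also known to lack and which cells need in medium without uracil, was expressed in both strains at 3828 and 4477 against 6268 and 7253 normalized reads, a difference of 0.70 ± 0.12 (SE, adjusted p = 0.0023). TRP1, of tryptophan synthesis, was lower at -1.79 ± 0.15 (SE, adjusted p = 6.14e-05).

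Transcripts of the a mating type were low in the mutant and those of the alpha type high. The a-factor pheromone gene MFA1 had 776 and 819 reads in the wild type and 10 and 13 in the mutant, and STE2, the receptor for alpha factor, 3644 and 3586 against 67 and 59. The other a-factor gene MFA2 had 1333 and 1853 against 129 and 184 reads, and the a-factor exporter gene STE6 2267 and 1843 against 271 and 231. In the a-specific list 7 of 8 tested members were lower, and the one that was higher was AFB1, at 2.45 ± 0.14, which is known as an a-factor barrier made by alpha cells. MF(ALPHA)1, an alpha-factor gene, had 12 and 60 reads in the wild type and 6140 and 6852 in the mutant, MF(ALPHA)2, the second such gene, 1 and 14 against 154 and 235, and the a-factor receptor gene STE3 278 and 240 against 2684 and 2709. HMRA1, an a1 gene copy on chromosome III, had 406 and 337 reads in the wild type and 0 and 1 in the mutant. The counts cannot tell this normally silent copy from an a1 gene at the mating-type locus. In untreated cells 4 of 4 tested members of the alpha-specific list were higher and 0 lower. In perchlorate SAG1, the alpha-agglutinin gene, went the other way from this list. It had 590.0 and 604 normalized reads in the wild type and 405 and 407 in the mutant, a difference of -0.56 ± 0.10 (SE, adjusted p = 0.00364). Of 11 haploid-specific genes tested, 1 was higher (FUS3, a pheromone response kinase, at 0.61 ± 0.10) and 3 were lower (AXL1 at -0.65 ± 0.09, SST2 at -0.62 ± 0.10 and FAR1 at -0.52 ± 0.10), and with RPM 3 were higher and 3 lower. The effects of the marker genes, the mating type, the 2 engineered alleles and any other genetic difference between the strains cannot be told apart in this design. This holds for every transcript below.

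Several transcripts were near absent from 1 strain. In perchlorate, 12 transcripts had at most 3 reads in each mutant library and at least 50 in each wild-type library. Besides EDC3 and HMRA1 these were REE1, a regulator gene of enolase 1, with 860 and 922 against 0 and 2 reads, the siderophore transporter gene ARN2 with 806 and 590 against 0 and 3, the aryl-alcohol dehydrogenase gene AAD6 with 613 and 584 against 0 and 3, and AIF1, a cell death effector gene, with 442 and 347 against 0 and 1. The others were RDT1 with 213 and 194 against 0 and 0, YLR460C with 151 and 95 against 0 and 0, and 4 uncertain transcripts with near-identical copies: YJL113W, YHR054C, GEX2 and PAU6. The reverse pattern held for 2, YAR068W with 0 and 3 against 312 and 260 reads and YCL019W. All but 1 of these 14 transcripts had at most 4 reads per library in the low strain in untreated cells as well, the exception being YCL019W with 7 and 5. COS8, of the subtelomeric COS family, narrowly missed the limit, with 1723 and 1595 reads in the wild type and 0 and 7 in the mutant. Over the subtelomeric COS and AAD families 9 of 17 tested members were higher and 6 lower, and some of them, such as COS4, are uncertain for the same reason.

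Across all 5701 transcripts, 1818 (31.9%) differed between the strains in perchlorate, 931 higher in the mutant (16.3%) and 887 lower (15.6%). The counts of each gene list are to be read against these shares, and some lists lie near or below them. For counts in untreated cells the shares of all transcripts were 11.0% higher and 11.6% lower. Most differences were small: 200 of the higher (3.51%) and 160 of the lower (2.81%) reached 2-fold, the median difference was -0.01, and the quartiles were -0.24 and 0.23. The strains did not overlap for 3967 transcripts (69.6%), with the mutant above in 34.4% and below in 35.2%. Leaving out 1 library gave 1370 to 1490 calls, of which 1264 to 1349 were among the 1818, and none of the shared calls changed sign. The split depends on the scaling, because with RPM 1421 were higher and 447 lower. That scaling moved the median of all transcripts to 0.14. The 10 most abundant transcripts took 12.0% and 13.2% of the reads in the wild type and 9.12% and 9.66% in the mutant. The sign of the median turned for 10 of 43 gene lists under RPM (glycerol, Hog1 pathway, ion transport, hexose transport, nitrogen use, purines, iron and copper, oxidative stress, heat shock and proteasome), for none after the shift of 0.14 was subtracted, and for none under TMM scaling. The balance of higher against lower calls under RPM is given beside the lists where it turned or evened out. Those counts are to be read against the 1421 higher and 447 lower of all 5701 transcripts under RPM. In the authors' deposited table, 710 transcripts were classed as up and 598 as down at their limit of 0.5 on the log2 scale, and 587 and 463 of the transcripts in their q-significant sheet were up and down.

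**Figure D1:**
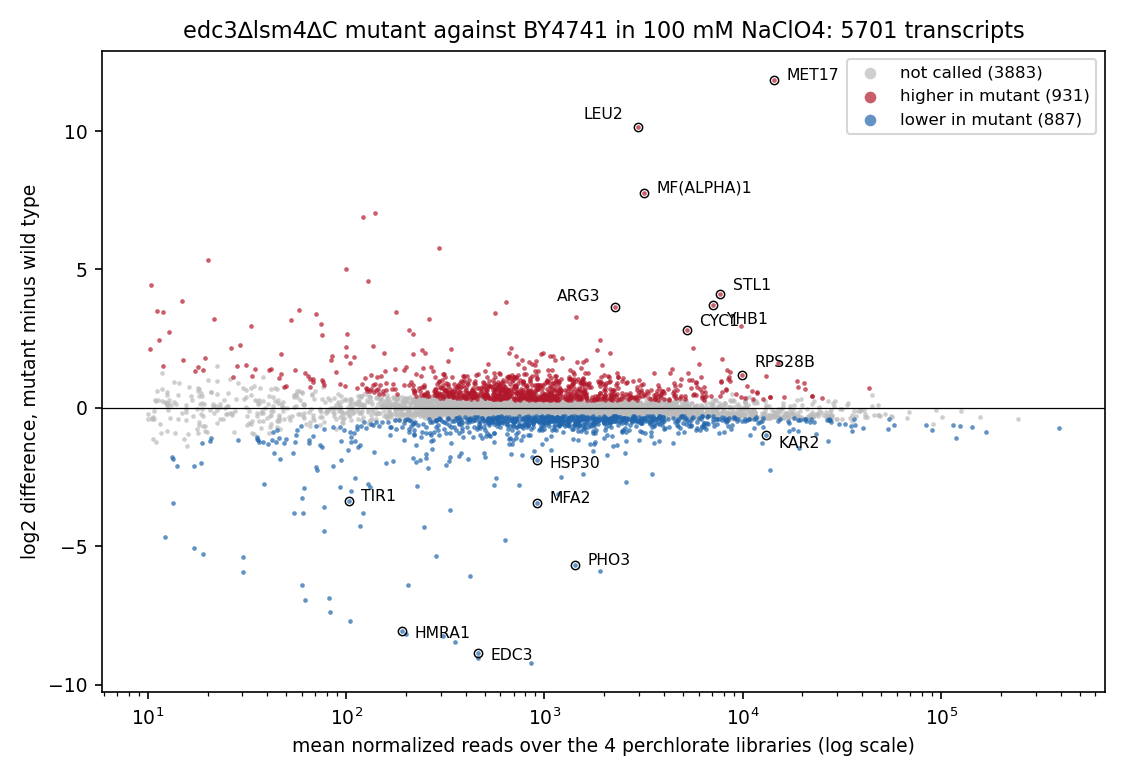
Log2 difference between mutant and wild type in perchlorate (vertical axis) against the mean of normalized reads over the 4 perchlorate libraries (horizontal axis, log scale), 1 point per transcript tested. Red points are the 931 transcripts called higher in the mutant and blue points the 887 called lower, and named genes are circled. Most calls lie close to 0, while the markers MET17 and LEU2 have the highest values and the deleted EDC3 is among the lowest.

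Almost every gene tested for the mitochondrial ribosome was higher in the mutant. This ribosome translates the few proteins encoded by mitochondrial DNA. Transcripts for its nuclear-encoded proteins were taken by name (MRP, MRPL, MRPS or RSM), so genes with other names are not among them. Of 67 tested, 64 were higher in the mutant and 0 lower. The median difference was 0.88 (1.84-fold), with values between 0.11 and 1.42. Every mutant library lay above every wild-type library for 66 of the 67, and for 34.4% of all transcripts. MRPS17 had 367 and 497 normalized reads in the wild type and 1098 and 1203 in the mutant, a difference of 1.42 ± 0.15 (SE, adjusted p = 0.000157). RSM28 had 577 and 569 against 1526 and 1476, at 1.39 ± 0.09 (SE, adjusted p = 1.75e-05), while MRPL3 and RSM26 stood at 1.26 ± 0.09 and 1.22 ± 0.12. The members that did not pass were MRPL44 at 0.11 ± 0.13, MRPS12 at 0.38 ± 0.15 and MRP8 at 0.20 ± 0.09, the last of which is listed by its name but is not known to be part of the ribosome. Between 61 and 65 passed with 1 library left out. In untreated cells the list had 65 higher, 0 lower members and a median of 1.01, and none of the 67 passed the test of a different strain effect in perchlorate. Only 137 of 5688 transcripts (2.41%) passed that test, so a count of 0 does not set this list apart.

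These mRNAs are the best known targets of Puf3, an RNA-binding protein that attaches to a short element in the 3′ untranslated region and promotes deadenylation and decay. The element was therefore searched, as the letters TGTANATA on the sense strand, in the 250 bases after the stop codon in the RefSeq R64 reference. The choice of this motif was made after the group's values were seen. Sites are shown for the 4 members with the largest differences, with 8 bases on either side and the motif in capitals.
MRPS17 (chrXIII:636220-636243, minus strand): ctacactcTGTAAATAtatacaac
RSM28 (chrIV:1438039-1438062, plus strand): tacataccTGTAAATAtctagtac
MRPL3 (chrXIII:323057-323080, plus strand): tgccatttTGTAGATAgagaactc
RSM26 (chrX:619114-619137, plus strand): ttatatacTGTAAATAgttttatt
Of the 67 transcripts, 65 held the motif, first found 8 to 139 bases after the stop codon (median 51), against 897 of 5694 (15.8%) of all tested transcripts with a full window. The motif was not in the windows of MRP8 and RSM22, which encodes an assembly factor and was itself higher at 0.62 ± 0.12.

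The list of mitochondrial ribosomal genes was taken by name and leaves out some that hold the motif. Examples are IMG1, IMG2 and RML2, which are counted here among the other transcripts. Outside the list 832 transcripts held the motif. Of these, 254 were higher (30.5%) and 89 lower, with a median of 0.14, and of 4795 without it 611 were higher (12.7%) and 795 lower, with a median of -0.04. The reverse complement of the motif in the same windows was counted for comparison: of 833 transcripts holding it, 134 were higher (16.1%) and 126 lower, with a median of -0.02. These shares were not tested against each other. A match of 8 letters describes the window and is not a measured binding site. PUF3 mRNA itself, named after its values were seen, had 1228 and 1015 normalized reads in the wild type and 2323 and 1844 in the mutant, a difference of 0.89 ± 0.14 (SE, adjusted p = 0.00148). COX17, a copper chaperone gene whose mRNA is a classical Puf3 target, was also chosen after its values were seen and had 299 and 358 against 744 and 814, at 1.25 ± 0.12 (SE, adjusted p = 0.000127).

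**Figure D2:**
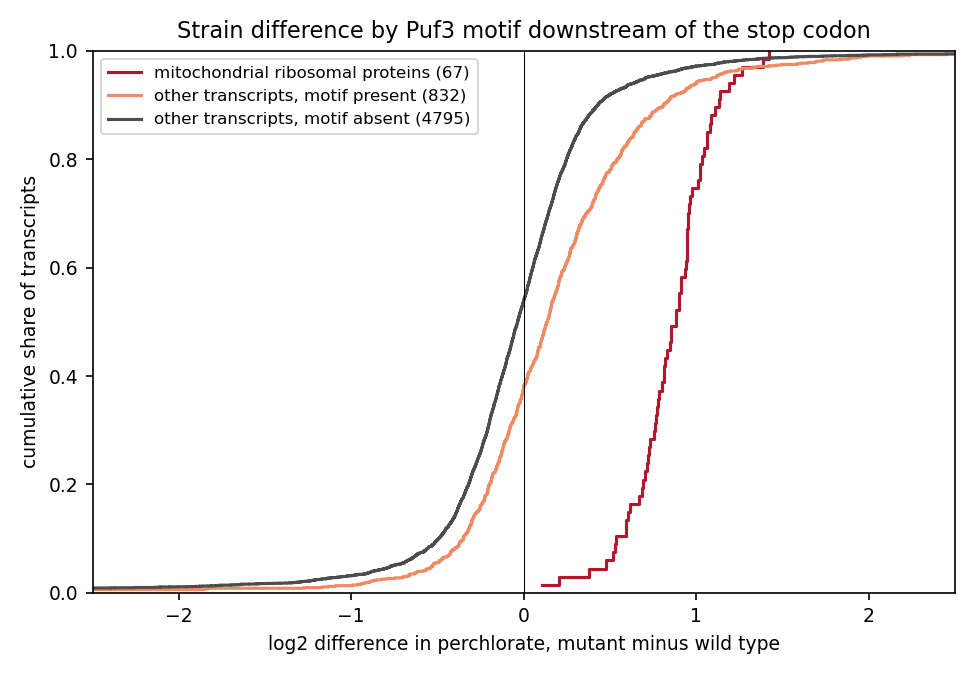
Cumulative share of transcripts (vertical axis) by log2 difference between mutant and wild type in perchlorate (horizontal axis), for mitochondrial ribosomal protein transcripts (67) and for other transcripts with (832) and without (4795) the motif TGTANATA within 250 bases after the stop codon. The curve of the mitochondrial ribosomal proteins lies wholly above 0. That of other transcripts with the motif is shifted to the right, with a median of 0.14 against -0.04. The 67 were taken by gene name, so the other transcripts include mitochondrial ribosomal genes with other names.

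Among genes of respiration and of the tricarboxylic acid (TCA) cycle more members were higher than lower. In the respiratory chain and ATP synthase list 17 of 39 tested members were higher and 2 lower, with a median of 0.28. CYC1, the main cytochrome c gene, had 1232 and 1362 normalized reads in the wild type and 8809.8 and 9449 in the mutant, a difference of 2.82 ± 0.10 (SE, adjusted p = 5.44e-07). The alternative subunits 5 of cytochrome c oxidase moved in opposite directions: COX5A, the form used in air, rose from 3284 and 3938 to 11204 and 13167, at 1.76 ± 0.13 (SE, adjusted p = 2.58e-05), and COX5B, the form made when oxygen is low, fell from 903 and 1052 to 401 and 379.7, at -1.32 ± 0.11 (SE, adjusted p = 6.14e-05). The external NADH dehydrogenase gene NDE1 was higher at 1.16 ± 0.10. ATP3, of the ATP synthase, was lower at -0.31 ± 0.10, a call lost without any 1 library. The same list held 31 higher and 1 lower member in untreated cells, with a median of 0.80. In the interaction test described below 1 of the 39 passed, the Rieske iron-sulfur protein gene RIP1, against 2.41% of all transcripts. In the TCA and glyoxylate list 14 of 31 were higher and 3 lower, with a median of 0.29. The isocitrate dehydrogenase genes IDH1 (mitochondrial) and IDP2 (cytosolic) stood at 1.36 ± 0.10 and 1.27 ± 0.11, and SFC1 and DIC1, carriers of succinate and of dicarboxylates, at 1.16 ± 0.14 and 0.91 ± 0.09. MDH3, the peroxisomal malate dehydrogenase gene, was lower at -0.58 ± 0.10. FBP1 and LSC2, the other lower members, stood at -0.51 ± 0.17 and -0.31 ± 0.10. Both were lost in several omissions, FBP1 without wild type 1, wild type 2 or mutant 1 and LSC2 without any 1 library.

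Of 27 tested genes of glycolysis and fermentation 12 were lower and 2 higher, with a median of -0.36. TDH1, a glyceraldehyde-3-phosphate dehydrogenase gene, had 28031 and 28524 normalized reads in the wild type and 10344 and 10257 in the mutant, a difference of -1.46 ± 0.11 (SE, adjusted p = 2.8e-05). ADH1, the main fermentative alcohol dehydrogenase gene, had 146270.1 and 176040.1 against 72326 and 78584, at -1.09 ± 0.17 (SE, adjusted p = 0.00169). The aldolase gene FBA1 was at -0.87 ± 0.18 and the phosphoglycerate mutase gene GPM1 at -0.80 ± 0.16, both lost without mutant 1 or mutant 2. ADH2, the alcohol dehydrogenase used to consume ethanol, was higher at 0.65 ± 0.10, as was the hexokinase gene HXK2 at 0.40 ± 0.11, the latter lost without wild type 1, mutant 1 or mutant 2. The count of lower members fell to 8 without wild type 1, 5 without wild type 2, 2 without mutant 1 and 3 without mutant 2. In the hexose transport list 3 of 20 were higher (15.0%) and 2 lower (10.0%), both below the shares of all transcripts. The galactose permease gene GAL2 was higher at 1.10 ± 0.25 (SE, adjusted p = 0.0104). MTH1, a corepressor of transporter genes, was at 1.06 ± 0.10 (SE, adjusted p = 0.00013). The uncertain transporter gene HXT9 was lower at -1.78 ± 0.51 (SE, adjusted p = 0.0269), lost without mutant 1. HXT1 was at 0.33 ± 0.10, lost without any 1 library, and MIG2 at -0.37 ± 0.10, lost without wild type 1 or mutant 2. The lower members numbered 0 without wild type 1, 4 without wild type 2 and 1 without mutant 2.

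Of 137 tested ribosomal protein genes of the cytosol, 15 were lower (10.9%) and 3 higher (2.19%), with a median of -0.31. Both shares were below those of all transcripts (15.6% lower and 16.3% higher). RPL34A was at -0.58 ± 0.12 and RPL1A, uncertain because of a near-identical copy, at -0.99 ± 0.18, and the higher members were RPS28B (described above), RPS9A at 0.46 ± 0.09 and RPL22B at 0.39 ± 0.10. The count of lower members was very unstable, at 44 without wild type 1, 2 without wild type 2, 2 without mutant 1, 23 without mutant 2, 48 with DESeq2 and 3 with RPM, under which 4 were higher. In untreated cells 69 were lower and 1 higher, with a median of -0.33. Genes that build ribosomes in the nucleolus had 16 higher and 0 lower members of 70, a median of 0.22 and 0 lower members under every omission. SSF2, a gene for a processing factor of the large subunit, led them with 411 and 444 against 1435 and 1345 normalized reads, at 1.70 ± 0.10 (SE, adjusted p = 8.65e-06). The number of higher members was 3 without wild type 1, 20 without wild type 2, 8 without mutant 1, 11 without mutant 2 and 40 with RPM.

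**Figure D3:**
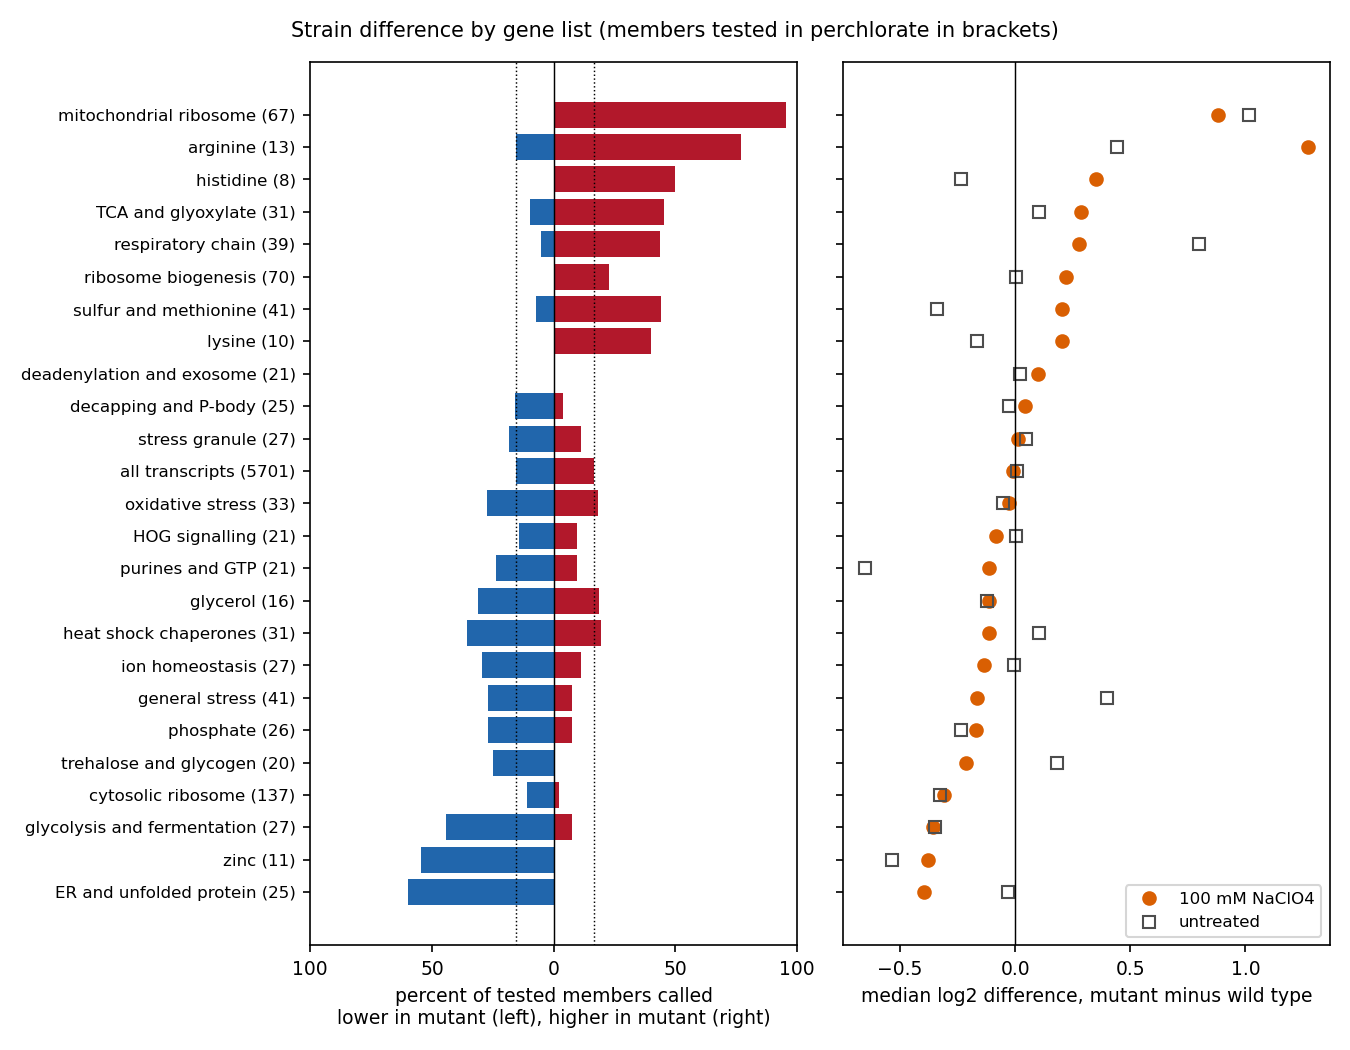
Left, the percentage of tested members of each gene list plotted that were called lower (blue, to the left) or higher (red, to the right) in the mutant in perchlorate, with dotted lines at the values of all transcripts (15.6% lower and 16.3% higher). Right, the median log2 difference in perchlorate (filled circles) and in untreated cells (open squares). Of the lists plotted, the mitochondrial ribosome has the highest percentage called higher, and arginine the highest median in perchlorate, while lists such as general stress and ER and unfolded protein have a lower median in perchlorate than in untreated cells.

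Perchlorate adds salt and osmotic stress, to which yeast responds through the Hog1 kinase by making and importing glycerol. STL1, the glycerol importer of the plasma membrane, had 833 and 836 normalized reads in the wild type and 14296 and 14847 in the mutant, a difference of 4.12 ± 0.09 (SE, adjusted p = 3.61e-08). GPD1, the glycerol-3-phosphate dehydrogenase that starts glycerol synthesis, was also higher, with 32275 and 33743 against 51897 and 56024, at 0.71 ± 0.13 (SE, adjusted p = 0.00364), a call lost without mutant 2. In the glycerol list as a whole 3 of 16 were higher and 5 lower, with a median of -0.11. GCY1, a glycerol dehydrogenase gene, was higher at 0.40 ± 0.10. The dihydroxyacetone kinase gene DAK1 was lower at -0.71 ± 0.11, the second glycerol-3-phosphate dehydrogenase gene GPD2 at -0.40 ± 0.10, the glycerol channel gene FPS1 at -0.43 ± 0.11, its regulator RGC1 at -0.32 ± 0.10 and the reductase gene YPR1 at -0.42 ± 0.09. Apart from STL1 and DAK1, each call in this list was lost without at least 1 library: GCY1 without wild type 2 or mutant 1, GPD2 without wild type 2, mutant 1 or mutant 2, FPS1 without wild type 1, RGC1 without wild type 1, mutant 1 or mutant 2, and YPR1 without mutant 1. The lower members numbered 3 without wild type 1 or mutant 2 and 2 without mutant 1, and with RPM 4 were higher and 1 lower. In untreated cells the STL1 difference was 4.67 ± 0.23 (SE, adjusted p = 7.72e-05), with 9.99 and 12.5 normalized reads in the wild type.

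Of 21 tested components of the Hog1 pathway, 2 were higher (9.5%) and 3 lower (14.3%), with a median of -0.09. Both shares were below those of all transcripts (16.3% higher and 15.6% lower). PBS2, the kinase that activates Hog1, was at -0.37 ± 0.11, its activator SSK2 at -0.38 ± 0.11, the osmosensor gene HKR1 at -0.40 ± 0.10, the regulator SSK1 at 0.33 ± 0.10 and the transcription factor gene SMP1 at 0.49 ± 0.12, and none of these calls was stable. PBS2, HKR1 and SMP1 were lost without wild type 1 or mutant 2, SSK2 without wild type 1, wild type 2 or mutant 2, and SSK1 without wild type 2, mutant 1 or mutant 2. With RPM 3 were higher and 0 lower. Among ion transport and salt tolerance genes 3 of 27 were higher and 8 lower, with a median of -0.14. HAL1, a salt tolerance gene, was higher at 1.02 ± 0.13 (SE, adjusted p = 0.000606). ENA1, the sodium export pump, was uncertain for its near-identical copies and stood at 0.64 ± 0.09 (SE, adjusted p = 0.00108). PMP3, a small membrane protein gene, was at 0.78 ± 0.18, lost without wild type 1. PMA1, the plasma membrane proton pump, had 140897 and 162298 against 96588 and 96599 normalized reads, at -0.65 ± 0.17, lost without wild type 2, mutant 1 or mutant 2. The number of lower members in this list was 3 without wild type 2, 4 without mutant 2 and 5 without wild type 1 or mutant 1, and with RPM 3 were higher and 2 lower.

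The general stress program of Msn2 and Msn4, transcription factors that act in many stresses, had more lower than higher members with the deposited size factors, but not with RPM. Of 41 tested members 11 were lower and 3 higher, with a median of -0.17, and with RPM 6 were lower and 7 higher. YGP1, a secreted glycoprotein gene, had 49865 and 51087 normalized reads in the wild type and 29567 and 30767 in the mutant, a difference of -0.74 ± 0.12 (SE, adjusted p = 0.00231). The aldehyde dehydrogenase gene ALD2 and the nucleotidase gene PHM8 were at -0.78 ± 0.10 and -0.63 ± 0.10. The catalase gene CTT1 went the other way, with 14318 and 11273 against 26024 and 23829, at 0.97 ± 0.14 (SE, adjusted p = 0.000988), and so did TKL2, a transketolase gene, at 0.56 ± 0.11. PRB1, a vacuolar protease gene, was the third higher member at 0.54 ± 0.17, lost without wild type 2 or mutant 1. The stress response element CCCCT was searched on either strand within 250 bases upstream of the start codon. It was found for 56.1% of this list and 19.1% of all tested transcripts. The 23 members with it had 3 higher and 4 lower calls and a median of -0.07. The 18 members without it had 0 higher and 7 lower calls and a median of -0.37. In untreated cells the same list had 11 higher and 2 lower members and a median of 0.40. The number of lower members in perchlorate was 6 without wild type 1 and 7 without mutant 2. Of the trehalose and glycogen genes 5 of 20 were lower and 0 higher, with a median of -0.21, including the branching enzyme gene GLC3 at -0.63 ± 0.09 (SE, adjusted p = 0.00104) and the glycogen phosphorylase gene GPH1 at -0.53 ± 0.11. That count was 2 without wild type 1, 1 without mutant 2 and 2 with RPM, and the GPH1 call was lost without mutant 2.

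**Figure D4:**
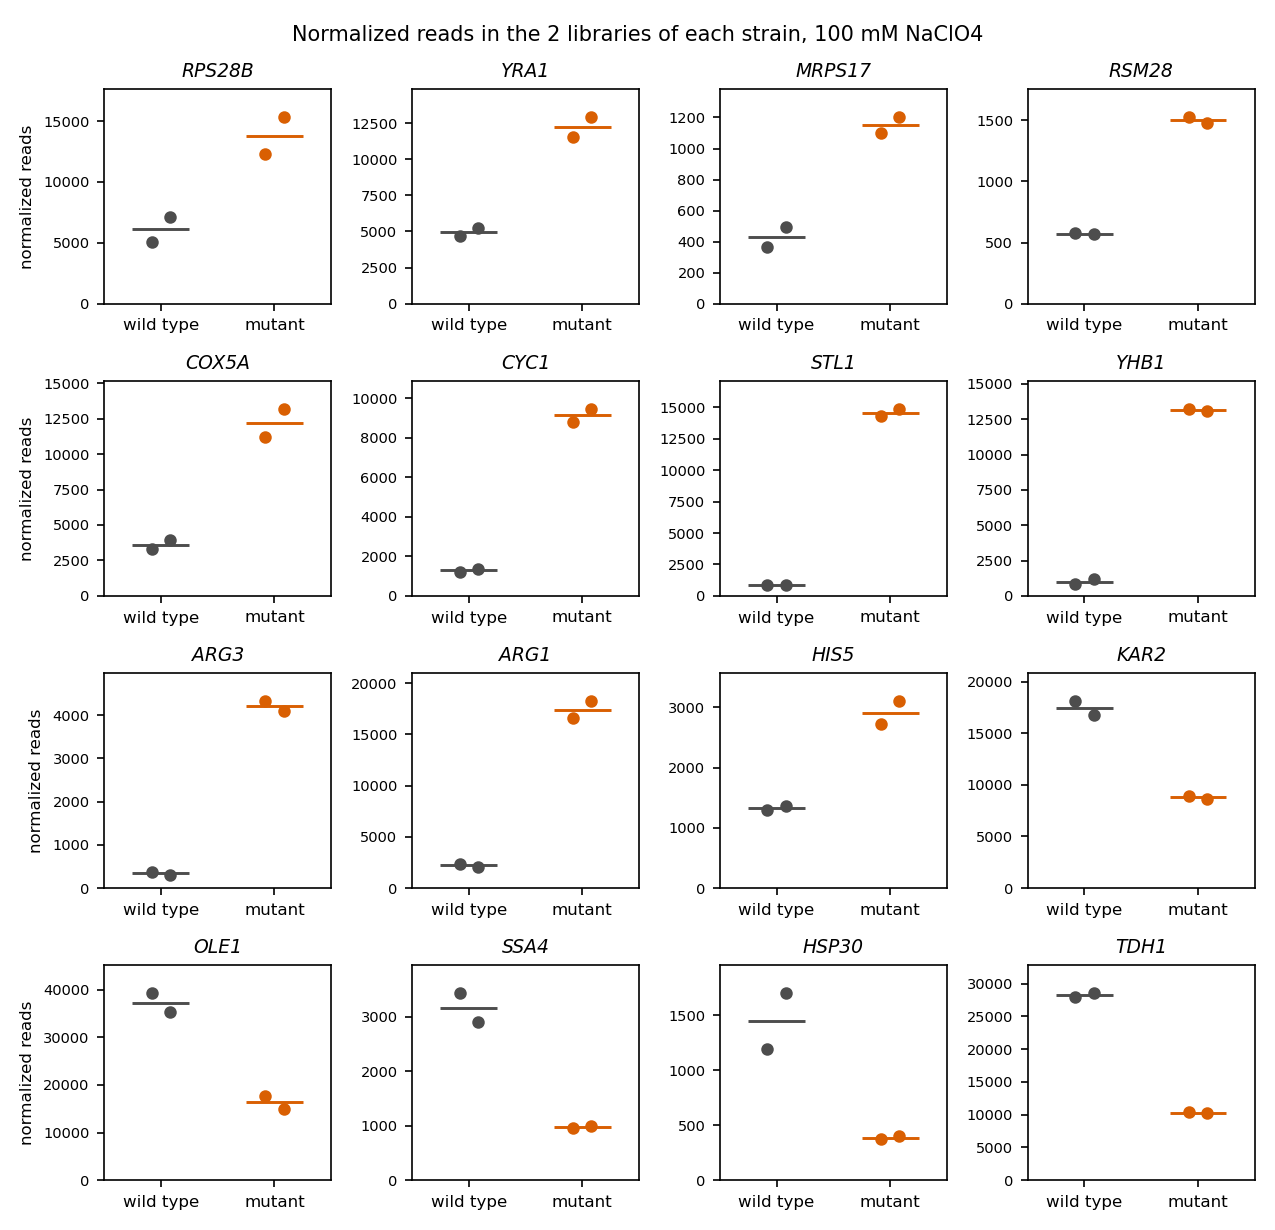
Normalized reads (vertical axes, from 0) of 16 transcripts in the 2 wild-type (grey) and 2 mutant (orange) libraries grown in 100 mM NaClO4, with points for libraries and lines for means. The strains do not overlap in any panel, which also held for 69.6% of all transcripts. STL1 rises from 833 and 836 to 14296 and 14847.

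Enzymes of arginine synthesis had the highest median of the metabolic lists. Of 13 tested members 10 were higher and 2 lower, with a median of 1.27. ARG3, the ornithine carbamoyltransferase, had 372 and 304 normalized reads in the wild type and 4321 and 4104 in the mutant, a difference of 3.64 ± 0.12 (SE, adjusted p = 2.68e-07). ARG1, the argininosuccinate synthase, had 2394 and 2052 against 16582 and 18232, at 2.97 ± 0.11 (SE, adjusted p = 7.66e-07), and ARG56 and ARG8, enzymes of ornithine synthesis, stood at 2.16 ± 0.09 and 1.73 ± 0.09. The 2 lower members were CAR2, which degrades arginine, at -0.40 ± 0.11 and CAN1, the arginine permease, at -0.39 ± 0.09, neither stable to omission: CAR2 was lost without wild type 2 or mutant 1 and CAN1 without wild type 2 or mutant 2. Of 8 histidine genes 4 were higher and 0 lower, among them HIS5, an aminotransferase gene, from 1297 and 1363 to 2726 and 3104, at 1.13 ± 0.10 (SE, adjusted p = 7.88e-05), and HIS7 at 0.56 ± 0.09. HIS1 was at 0.47 ± 0.12, lost without wild type 1 or mutant 2, and HIS3, part of which is known to be deleted in BY4741, at 0.76 ± 0.13.

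Many of these genes are activated by Gcn4, a transcription factor made when amino acids run short, which binds TGACTC. Searched after the list values were seen, on both strands in the 250 bases upstream of the start codon, this motif was in 7 of 13 arginine genes, 7 of 8 histidine genes and 6.39% of all tested transcripts. ARG3 and ARG1 held no match, and the median difference was 1.27 over the arginine genes with the motif and 1.22 over those without it. The upstream windows of ARG56 and HIS7, each with 2 matches and 50 bases of coding sequence at the end, are shown with TGACTC or its reverse complement GAGTCA in capitals.
ARG56 (chrV:295160-295459, plus strand): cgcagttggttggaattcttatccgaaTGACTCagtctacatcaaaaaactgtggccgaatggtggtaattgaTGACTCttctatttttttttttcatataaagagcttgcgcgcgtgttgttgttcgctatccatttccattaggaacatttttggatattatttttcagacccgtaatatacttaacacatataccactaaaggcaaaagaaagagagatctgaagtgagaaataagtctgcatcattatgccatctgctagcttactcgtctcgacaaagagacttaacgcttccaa
HIS7 (chrII:716416-716715, minus strand): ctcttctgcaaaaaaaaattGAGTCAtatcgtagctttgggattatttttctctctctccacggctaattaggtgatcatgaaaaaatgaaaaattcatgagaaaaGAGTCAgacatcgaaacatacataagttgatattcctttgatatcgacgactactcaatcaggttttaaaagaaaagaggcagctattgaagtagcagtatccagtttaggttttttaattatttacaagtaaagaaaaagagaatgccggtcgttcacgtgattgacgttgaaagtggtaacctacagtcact
Over all tested transcripts, 76 of the 364 with the motif were higher (20.9%) and 46 lower, against 853 of 5330 without it (16.0%) higher. GCN4 mRNA itself was at 0.38 ± 0.11 (SE, adjusted p = 0.0312), a call lost without wild type 1, mutant 1 or mutant 2. In the leucine and branched-chain list, where 8 of 15 had it, 1 member was higher (LEU2) and 3 were lower, LEU1 at -0.56 ± 0.09, OAC1 at -0.34 ± 0.11 and BAT1 at -0.33 ± 0.09. In untreated cells 1 member of this list was higher and 9 were lower, with a median of -0.41. In perchlorate the calls of OAC1 and BAT1 were lost without any 1 library, and with RPM 3 were higher and 1 lower. For lysine 4 of 10 were higher, led by LYS1 at 0.91 ± 0.09 (SE, adjusted p = 0.000131), with 3 without wild type 1, 1 without wild type 2 or mutant 1, and 2 without mutant 2.

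Of the sulfur assimilation and methionine genes 18 of 41 were higher and 3 lower, with a median of 0.20. Besides MET17, which the wild type lacks, JLP1, a sulfonate dioxygenase gene, had 149 and 153 against 388 and 615 normalized reads, at 1.69 ± 0.20 (SE, adjusted p = 0.000325). YCT1, a cysteine transporter gene, had 765 and 887 against 1962 and 2504, at 1.43 ± 0.13 (SE, adjusted p = 0.000102). MMP1, a permease gene for S-methylmethionine, was lower at -1.65 ± 0.15 (SE, adjusted p = 8.26e-05), as were IRC7, a desulfhydrase gene, at -0.47 ± 0.10 and the cystathionine synthase gene CYS4 at -0.46 ± 0.10, the last lost without mutant 1 or mutant 2. In untreated cells the sulfur list went the other way, with 1 member higher, 16 lower and a median of -0.34. Without wild type 1 the lower members in perchlorate numbered 5. Among the remaining amino acid genes PRO1, of proline synthesis, was at 1.11 ± 0.09 and ARO1, of aromatic amino acid synthesis, at 0.93 ± 0.09. PRO3 was lower at -0.51 ± 0.12, lost without wild type 2 or mutant 1. That mixed list had 5 higher and 6 lower members of 30. Its higher members numbered 3 without wild type 1 and 2 without mutant 2, and its lower ones 4 without wild type 1, 3 without wild type 2 or mutant 2 and 1 without mutant 1, and with RPM 10 were higher and 2 lower.

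Permeases and enzymes for poor nitrogen sources were lower in 8 of 27 cases and higher in 2, with a median of -0.12. The general amino acid permease gene GAP1 had 6164 and 4401 against 2389 and 2120.3 normalized reads, at -1.21 ± 0.15 (SE, adjusted p = 0.000496). The urea permease gene DUR3 was at -1.14 ± 0.13 and the ammonium permease gene MEP2 at -0.85 ± 0.11, while PUT4, the proline permease gene, was higher at 0.70 ± 0.10 (SE, adjusted p = 0.00112). Without wild type 1 or mutant 2, or with RPM, the lower members numbered 5. For purines and GTP 2 of 21 were higher and 5 lower, or 3 lower without wild type 2, mutant 1 or mutant 2 or with RPM. In untreated cells 0 of these genes were higher and 15 lower, with a median of -0.65. In perchlorate IMD2, an IMP dehydrogenase gene, went from 73.9 and 105 to 317 and 375, at 1.95 ± 0.19 (SE, adjusted p = 0.000117). ADE17, of purine synthesis, went from 1846 and 1613 to 979 and 1069, at -0.75 ± 0.11 (SE, adjusted p = 0.000891). In the pyrimidine list 4 of 14 were higher, including URA4 at 0.87 ± 0.09 and URA2 at 0.70 ± 0.12, and 1 was lower, URA8 at -0.37 ± 0.09, lost without wild type 1 or mutant 1.

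Endoplasmic reticulum (ER) folding genes, including targets of the unfolded protein response, were lower in the mutant in 15 of 25 cases tested and higher in 0, with a median of -0.40. KAR2, the Hsp70 chaperone of the ER, had 18115 and 16801 normalized reads in the wild type and 8904 and 8663 in the mutant, a difference of -0.99 ± 0.10 (SE, adjusted p = 0.000186). The disulfide isomerase gene EUG1 was at -1.08 ± 0.10 (SE, adjusted p = 8.75e-05), the oxidase gene ERO1 at -0.82 ± 0.09 and the mannosyltransferase gene PMT3 at -0.77 ± 0.10. Between 11 and 16 members were lower with 1 library left out. Without perchlorate 0 were higher and 2 lower, with a median of -0.03, against 11.0% higher and 11.6% lower among all transcripts.

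The heat shock and chaperone list, which is not limited to the cytosol, had 6 of 31 higher and 11 lower, or 7 and 8 with RPM. The higher members were HSP33, HSP32, HSP31, HSP10, MDJ1 and HSP60. The lower ones were HSP30, SSA4, HSP26, HSP104, CPR6, SSA1, SSE1, HSP82, SSA2, SIS1 and HSC82. SSA4, a stress-induced Hsp70 gene, had 3425 and 2900.4 against 957 and 989 normalized reads, at -1.69 ± 0.11 (SE, adjusted p = 1.21e-05), and HSP30, a membrane protein gene that restrains the proton pump, 1195 and 1698 against 373 and 401, at -1.88 ± 0.16 (SE, adjusted p = 5.6e-05). HSP33 and HSP32, near-identical members of the DJ-1 family and thus uncertain, were higher at 2.24 ± 0.20 and 1.60 ± 0.21. Genes against oxidative stress had 6 higher and 9 lower members of 33, or 9 and 8 with RPM. YHB1, a flavohemoglobin that detoxifies nitric oxide, had 858 and 1171 normalized reads in the wild type and 13217 and 13087 in the mutant, at 3.71 ± 0.14 (SE, adjusted p = 7.66e-07). OYE3, an NADPH oxidoreductase gene, was higher at 2.14 ± 0.12, and the glutathione transferase gene GTT2 and peroxidase gene GPX2 were lower at -1.17 ± 0.13 and -1.09 ± 0.10.

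Lipid and cell wall genes held a few large differences. OLE1, the only fatty acid desaturase gene of this yeast, had 39187 and 35360.0 normalized reads in the wild type and 17738 and 14999.6 in the mutant, a difference of -1.19 ± 0.13 (SE, adjusted p = 0.000249). The HMG-CoA reductase genes went opposite ways, HMG1 higher at 1.05 ± 0.09 (SE, adjusted p = 6.97e-05) and HMG2 lower at -0.69 ± 0.09 (SE, adjusted p = 0.000582). UPC2, a sterol-sensing activator gene, was lower at -1.03 ± 0.11, ELO1, a fatty acid elongase gene, at -0.64 ± 0.12, and ERG5 and ERG8, of ergosterol synthesis, were higher at 0.89 ± 0.10 and 0.44 ± 0.09. In all 4 of 36 in this list were higher and 4 lower, or 12 and 4 with RPM. The shares of 11.1% each were below those of all transcripts (16.3% higher and 15.6% lower). The other higher member, IDI1 at 0.39 ± 0.09, was lost without wild type 2 or mutant 1. Of cell wall genes 9 of 36 were lower and 2 higher. TIR1, a mannoprotein gene of cold and low oxygen, had 189 and 187 against 15.8 and 19.3 normalized reads, at -3.35 ± 0.21 (SE, adjusted p = 1.14e-05), and DAN4, of the same group, was at -1.20 ± 0.14. PIR3, a covalently attached wall protein gene, was higher at 0.79 ± 0.11 (SE, adjusted p = 0.000819), as was SLT2, the kinase of the wall integrity pathway, at 0.52 ± 0.11.

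Genes of metals and vitamins also differed. CTR3, a copper transporter gene, had 65.7 and 103 normalized reads in the wild type and 1234 and 1152 in the mutant, at 3.84 ± 0.19 (SE, adjusted p = 3.52e-06), and HMX1, the heme oxygenase gene, was at 1.54 ± 0.16 (SE, adjusted p = 0.000171). TIS11, which encodes an mRNA-binding protein that brings down iron-using transcripts, was lower at -2.06 ± 0.27 (SE, adjusted p = 0.000587). In all 6 of 32 iron and copper genes were higher and 10 lower, ARN2 among the latter, or 9 and 9 with RPM. For zinc 6 of 11 were lower (3 with RPM) and 0 higher, including the transporter gene ZRT1 at -1.02 ± 0.17 (SE, adjusted p = 0.00209) and its activator ZAP1 at -0.93 ± 0.12 (SE, adjusted p = 0.000594). PHO3, an acid phosphatase gene known to be repressed by thiamine, had 2549.5 and 3022 normalized reads in the wild type and 51.2 and 57 in the mutant, at -5.66 ± 0.13 (SE, adjusted p = 3.61e-08). It is a member of both the phosphate list (2 of 26 higher, 7 lower), where GIT1, a permease gene for glycerophosphoinositol, was higher at 0.88 ± 0.17, and the thiamine and vitamin B6 list (6 of 23 higher, 5 lower). The thiamine transporter gene THI7 was lower at -0.78 ± 0.12, and SNO1, of vitamin B6 synthesis, was higher at 2.00 ± 0.21 (SE, adjusted p = 0.000169). PHO84, the phosphate transporter gene, is uncertain because of a near-identical copy and an overlapping transcript, and did not pass at -0.31 ± 0.18.

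In the autophagy list 8 of 27 were lower and 2 higher, with the vacuolar protease gene PEP4 at -0.84 ± 0.11 (SE, adjusted p = 0.000755), ATG34, a receptor of selective autophagy, at -1.08 ± 0.11 and the phagophore protein gene ATG8 higher at 0.42 ± 0.09. The other higher member, ATG10, was at 0.94 ± 0.25 and was lost without wild type 2 or mutant 2, and 4 were lower without wild type 1 or with RPM. Of 33 proteasome genes 1 was higher (RPT4 at 0.36 ± 0.09) and 1 lower (PRE2 at -0.31 ± 0.09), RPT4 being lost without wild type 2, mutant 1 or mutant 2 and PRE2 without any 1 library, and with RPM 3 were higher and 0 lower. Among pheromone response genes 4 of 17 were higher and 4 lower, led by PRM10 at 2.00 ± 0.12 (SE, adjusted p = 8.31e-06) and by FUS1, of cell fusion, at -1.83 ± 0.27 (SE, adjusted p = 0.00126), with 2 lower without wild type 1, without mutant 2 or with RPM, under which 5 were higher. MSG5, a phosphatase gene of this pathway, was higher at 1.19 ± 0.09, and AGA1, the anchor subunit of a-agglutinin, lower at -0.53 ± 0.10.

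The strain difference was then set beside that of untreated cells, which shares no library with it. In untreated cells 1277 of 5665 transcripts (22.5%) differed between the strains, 621 higher (11.0%) and 656 lower (11.6%), and 755 without untreated mutant 1. Of 5652 transcripts tested in both, 482 were higher in both conditions and 400 lower in both, while 17 were higher in perchlorate and lower in untreated cells and 5 the reverse. The transcripts higher in both made up 52.6% of those higher in perchlorate and 77.6% of those higher in untreated cells, and for lower ones the shares were 45.2% and 61.3%. Across transcripts, which are not independent, the differences had r = 0.87 and rho = 0.67, a description only.

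Whether the strain difference itself changed with treatment was examined by an interaction term fitted to all 8 libraries, the difference in perchlorate minus that in untreated cells. It passed for 137 of 5688 transcripts (2.41%), 96 with a higher value in perchlorate (1.69%) and 41 with a lower one (0.721%). Each table was normalized separately. The count was 390 without untreated wild type 1, 64 and 75 without perchlorate mutant 2 and 1, 84 and 82 without perchlorate wild type 1 and 2, and 84 and 87 without untreated mutant 1 and 2. Sulfur genes held 11 of the 96, purine genes 8, arginine genes 6 and a-specific genes 6. Of the a-specific genes 7 of 8 were lower in the mutant in each condition, some with few reads, which makes their fitted values less certain. Of 4 tested alpha-specific genes 2 passed, both with a lower value in perchlorate. For YCT1 the strain difference was -0.72 ± 0.21 untreated, which did not pass, and 1.43 ± 0.13 in perchlorate, an interaction of 2.15 ± 0.27 (SE, adjusted p = 0.00459). ARG1 stood at 1.32 ± 0.13 untreated, and its interaction was 1.65 ± 0.19 (SE, adjusted p = 0.00256). ADE17 was lower in the untreated mutant, at -2.91 ± 0.17, and its interaction was 2.16 ± 0.22 (SE, adjusted p = 0.00211). LEU1 and DIC1 were also lower without perchlorate, at -2.13 ± 0.09 and -1.71 ± 0.12, with interactions of 1.56 ± 0.13 (SE, adjusted p = 0.0008) and 2.62 ± 0.14 (SE, adjusted p = 0.000119).

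At the other end, OLE1 stood at 0.47 ± 0.16 untreated, which did not pass, and was lower in perchlorate, an interaction of -1.66 ± 0.23 (SE, adjusted p = 0.00675). KAR2 stood at 0.13 ± 0.08 untreated, with an interaction of -1.12 ± 0.13 (SE, adjusted p = 0.00269), and ERO1 at 0.23 ± 0.11, with -1.06 ± 0.14 (SE, adjusted p = 0.00621). HSP30 was 1146 and 369.7 normalized reads in the untreated wild type and 2732 and 1370.0 in the untreated mutant, a difference of 1.57 ± 0.54 that did not pass, and its interaction was -3.45 ± 0.67 (SE, adjusted p = 0.03). STP4, a zinc finger protein gene, was at 0.81 ± 0.18 untreated and -0.92 ± 0.14 in perchlorate, an interaction of -1.73 ± 0.26 (SE, adjusted p = 0.00907). The general stress gene YGP1 had an interaction of -1.09 ± 0.16 (SE, adjusted p = 0.00813), and GRE1 was the other call of its list, at -1.35 ± 0.26 (SE, adjusted p = 0.027). Unequal levels before treatment and unequal responses to perchlorate cannot be told apart by this term.

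**Figure D5:**
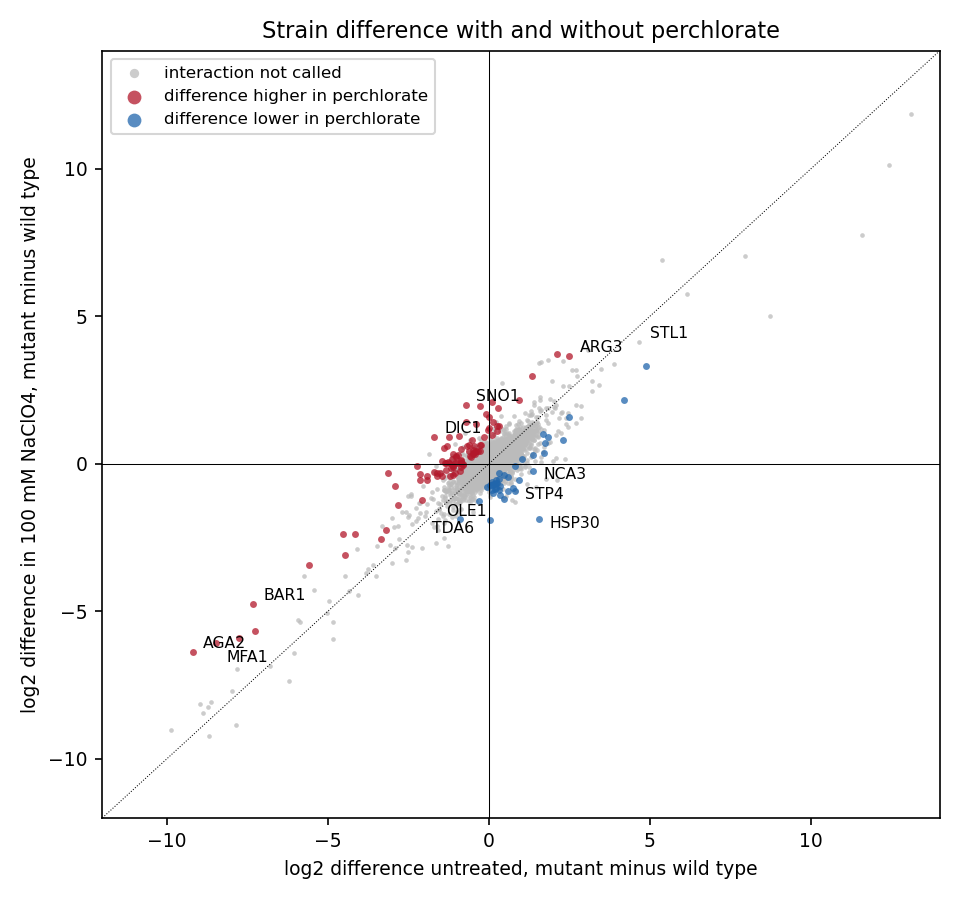
Log2 difference between mutant and wild type in 100 mM NaClO4 (vertical axis) against the same difference in untreated cells (horizontal axis), 1 point per transcript tested in both, with the diagonal dotted. Red points are transcripts whose strain difference was called higher in perchlorate than in untreated cells and blue points those called lower. Most points lie along the diagonal, and the named a-specific genes AGA2, MFA1 and BAR1 lie above it, while HSP30 and TDA6 lie below.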

How the data were processed

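RNA of 4 groups of 2 libraries was analysed, grouped by the sample titles. Per the submitters' processing notes, reads were processed with Trim Galore, FastQC and HISAT2, and per the file headers the authors used DESeq2 1.34.0. For the read counter, its strand setting and the genome build, the sources used here give nothing. The deposited values are signal, namely reads divided by a size factor in each table, and in each library 100% of them came out as whole reads within 0.01. The log2 fold changes and q-values that the authors deposited were used only for their own counts. Of 5969 transcripts, 5943 were matched to RefSeq (R64) by accession and 26 by locus tag, and 3 without an entry in the comparison sheets were left out.

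The strains were compared by limma 3.58.1 under R 4.3.3 (moderated test with a mean-variance trend, two-sided) on log2(normalized reads + 1) for transcripts with a mean of at least 10, which understates the change of low transcripts, with Benjamini-Hochberg adjustment over all transcripts tested. Errors are standard errors with n = 2 libraries per group, and read depth covers counting error only. Alternatives were other pseudocounts and filters, TMM, RPM, edgeR 4.0.16 and DESeq2 1.42.0 on the recovered reads, omission of each library and a replicate block. Transcripts with a copy of at least 95% identity over 50% of their length (315), or overlapping another by at least 50 bases (178), are called uncertain. The rule for named genes gave the markers and neighbours, up to 4 called members of each list with the largest differences or all where 5 or fewer were called in a direction, the 12 largest rises and falls without overlap at a mean of at least 50, and the 6 largest interactions in each direction. Not every gene it gave is named, and those left out stand only in the counts. Genes outside it serve as examples. Which to name was decided after their values were seen. Members and lists were chosen with earlier results of these data known. The fits were tested on simulated data with 200 transcripts changed 2-fold. Limma recovered 99.5% of these in perchlorate, 92.5% in untreated cells and 76% for the interaction. Of its calls 4.33%, 7.5% and 5% were false, in the same order. Interactions of this size can therefore be missed. Windows around coding regions came from the R64 reference, which may not be the build the authors used.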

Additional observations from a re-analysis of the deposited data

Results flagged for a closer look

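The strain difference in perchlorate and that in untreated cells differed, by the interaction test with limma, for 137 transcripts. Those with the largest values above 0 were PHO84, a phosphate transporter gene and an uncertain transcript, at 2.83 ± 0.43 (SE, adjusted p = 0.00965), AGA2, a subunit of a-agglutinin, at 2.82 ± 0.49 (SE, adjusted p = 0.0189), SNO1 at 2.71 ± 0.34 (SE, adjusted p = 0.0043), DIC1 at 2.62 ± 0.14 (SE, adjusted p = 0.000119), BAR1, a protease that degrades alpha factor, at 2.57 ± 0.19 (SE, adjusted p = 0.000493) and MFA1 at 2.38 ± 0.35 (SE, adjusted p = 0.00829). The a-specific genes were low in the mutant in both conditions. AGA2 had 1 and 0 reads in the untreated mutant and 5 and 3 in the mutant in perchlorate, so its fitted value depends on the pseudocount. Wild-type-typical reads were found in perchlorate mutant 2, as described above, and their part in these values was not tested.

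Those with the largest values below 0 were HSP30 at -3.45 ± 0.67 (SE, adjusted p = 0.03), YER053C-A at -2.03 ± 0.29 (SE, adjusted p = 0.00768), TDA6 at -1.94 ± 0.28 (SE, adjusted p = 0.00813), STP4 at -1.73 ± 0.26 (SE, adjusted p = 0.00907), OLE1 at -1.66 ± 0.23 (SE, adjusted p = 0.00675) and NCA3 at -1.61 ± 0.17 (SE, adjusted p = 0.00223). Among these 12 genes HSP30 was the one whose strain difference spanned the widest range, from 1.57 ± 0.54 untreated to -1.88 ± 0.16 in perchlorate. NCA3 stood at 1.38 ± 0.11 untreated and did not pass in perchlorate, at -0.23 ± 0.12.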

How the results depend on the processing

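With 2 libraries per group, single libraries decide many calls near the threshold. Of the 1818 calls in perchlorate, 97.4% were also made with TMM, 97.7% with edgeR, 89.5% with DESeq2, 75.7% with RPM and 69.5% to 74.2% with 1 library left out, and 0 had the other sign. RPM gave 1421 higher and 447 lower. Leaving out 1 library gave 1370 to 1490 calls in perchlorate, 755 to 1553 in untreated cells, and 64 to 390 interactions (47 to 171 higher and 16 to 219 lower). DESeq2 gave 223 interactions, 81 of them lower. With the replicate number as a block the counts were 3183 (1514 higher and 1669 lower) in perchlorate, 2482 in untreated cells and 269 interactions (156 higher and 113 lower). The block also called LSM4 higher (adjusted p = 0.0249 with limma), and 8 deadenylation and exosome genes higher and 1 lower. Libraries with the same number deviated together with r = 0.37 in perchlorate (0.0806 to 0.508 over all pairs of groups), but the labels do not say that the number marks a shared culture or day. SWI4 and VAC8 passed the test under none of the alternatives, and with 1 library left out they ranged from -0.0699 to 0.441 and from -0.0337 to 0.088, below 0 without wild type 2 or without mutant 1 (-0.0313 and -0.0046). At this depth, transcripts with at most 3 reads in a library were at the limit of detection.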

Other observations

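Some of the largest differences were in genes not yet described. FDH1, a formate dehydrogenase gene with a near-identical copy, had 12.8 and 6.94 normalized reads in the wild type and 257 and 239 in the mutant, at 4.57 ± 0.29 (SE, adjusted p = 1.16e-05). COS4, a subtelomeric gene that is uncertain in the same way, had 7.29 and 12.7 in the wild type and 525 and 633 in the mutant, at 5.76 ± 0.26 (SE, adjusted p = 2.19e-06). YLR302C, beside MET17, had 0 and 0 reads in the wild type and 39 and 43 in the mutant.

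HAP1, the gene of a heme-responsive activator of respiratory genes, was named after its values were seen. Its RNA was lower in the mutant, with 3714 and 2929 against 1391 and 1217 normalized reads, at -1.34 ± 0.13 (SE, adjusted p = 0.000118). Read counts do not show whether HAP1 was intact in either strain, nor how active its protein was. HAP4, of another activator of respiratory genes, did not pass, at 0.21 ± 0.14 (SE, adjusted p = 0.263). Among other Puf protein genes PUF2 stood at -0.55 ± 0.14 (SE, adjusted p = 0.017) and PUF4 at 0.08 ± 0.11 (SE, adjusted p = 0.598).

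Among the 1426 transcripts with the lowest mean normalized reads 238 were higher and 203 lower, and among the 1425 with the highest 181 were higher and 284 lower.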
